A study of Mus musculus with 57 samples.

Results

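The genes described here are 10 transcription factors of the AP-1 and immediate early class, Fos, Fosb, Fosl1, Fosl2, Jun, Junb, Jund, Egr1, Myc and Maff. They were found by symbol among the 54307 gene rows of a liver RNA-seq table, and all 10 were present. Livers came from 57 male wild-type mice of the strain C57BL/6JJcl, aged 6 weeks at the start of 1 week of acclimatisation, fasted for 12 h before administration and perfused 24 h after it. Alpha-naphthyl isothiocyanate (ANIT, 4 mice), acetaminophen (APAP, 6 mice), 4,4'-methylene dianiline (MDA, 7 mice) and thioacetamide (TAA, 5 mice) were given by gavage and compared with 13 mice given 0.5% methylcellulose by gavage. Carbon tetrachloride (CCl4, 7 mice) and galactosamine (GAL, 4 mice) were compared with 2 mice given saline intraperitoneally. The lectin concanavalin A (ConA, 7 mice) was compared with 2 mice given saline through the tail vein. Each compound was also set against all 17 vehicle mice. The amounts of compound are not given in the sources used here. Corn oil is named as another vehicle without a matching control among these mice, so compound and vehicle cannot be told apart where it was used.

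AP-1 is a pair of basic leucine zipper proteins, a Jun protein bound to a Fos or another Jun protein, which binds short palindromic DNA sites. Fos, Fosb, Jun, Junb and Egr1 are classic immediate early genes, transcribed within minutes of a growth factor, cytokine or stress signal without new protein synthesis, whereas Fosl1 is known as a later gene that AP-1 itself can drive. In liver, Fos, Jun, Egr1 and Myc are known for their early rise after partial hepatectomy and toxic injury, and Maff encodes a small Maf protein that lacks an activation domain and pairs with other leucine zipper proteins.

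Levels are given in CPM, that is, estimated counts scaled to a common library size with TMM, and the libraries held between 13826343 and 35075809 estimated counts. The labels number the livers of a group and do not say whether they came from separate experiments, so p-values measure the spread between the livers of a group. Hepatocyte markers were present in all libraries, with a summed level of 16157 to 26549 CPM in CCl4 and 24185 to 31807 CPM in GAL livers against 48849 to 54032 CPM in their 2 controls. Mitochondrial genes held 9.429% to 14.45% of estimated counts with CCl4 and 9.535% to 20.07% with GAL, against 9.236% and 5.115% in these controls. They held 14.55% to 39.31% with ConA, against 6.795% and 25.44%, and the part of this in the results was not tested. The library of APAP replicate 1 stood apart, with a mean correlation with the rest of its group of 0.858 beside 0.905 to 0.960 in the other 56 libraries. Results that rest on it are given without it below.

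All 10 factors rose with TAA and with ConA, whereas the other 5 compounds changed subsets of them. A gene was called where edgeR's quasi-likelihood test gave a Benjamini-Hochberg adjusted p under 0.05 over all genes tested. Against the vehicle of the same route, TAA raised 10 of 10 factors tested, where 26.4% of all genes tested were called higher and 24.0% lower. ConA raised 10 of 10, where these shares were 16.8% and 17.3%. In both comparisons every treated mouse lay above every control mouse for all 10 factors, which held for 10.0% of genes with TAA and 18.7% with ConA. ANIT raised 4 of 9 factors tested (14.0% of all genes were called higher and 14.2% lower), APAP 5 of 10 (17.3% and 14.6%) and MDA 4 of 9 (17.4% and 16.4%), and by edgeR 0 factors were called lower with these 3 compounds, 0 also at an unadjusted p under 0.05 and by DESeq2. The ANIT mice are all numbered 1 to 4, and with that number range as a covariate Fosl2 and Maff were called with ANIT, while Junb (2.20, edgeR adjusted p = 0.0502) and Myc (1.41, edgeR adjusted p = 0.0819) were not. In that fit 9.17% of genes were called higher and 9.9% lower. CCl4 gave 4 higher and 4 lower of 10, where 18.0% of genes were called higher and 15.6% lower. GAL gave 3 higher and 1 lower of 10, where these shares were 12.8% and 15.7%. Of the factors tested, Fosl1 passed the filter on low counts only through its treated livers, as vehicle livers held almost none. Every treated mouse lay above every control for 1 factor with ANIT (4.07% of genes), 2 with APAP (2.09%), 0 with MDA (1.76%), 4 with CCl4 (21.2%) and 4 with GAL (26.7%), and below for 2 with CCl4 (19.9%) and 1 with GAL (25.5%).

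The median log2 fold change of the factors tested was 2.86 with TAA and 4.45 with ConA, against 0.03 over all genes tested in both comparisons. It was 0.59 with ANIT, 1.24 with APAP and 0.91 with MDA, against medians over all genes of -0.01, 0.07 and 0.03. With CCl4 and GAL it was -0.13 and -0.54, against 0.10 and 0.08. Both turned positive without intraperitoneal control 7, at 0.91 with CCl4 and 0.84 with GAL, and fell to -0.62 and -0.97 without intraperitoneal control 8. With library totals instead of TMM they were also positive, at 0.26 and 0.18 against 0.53 and 0.84 over all genes. With all 17 vehicle mice as controls they were 0.14 and -0.14. Without APAP replicate 1 the APAP median was 0.60. With ANIT it was 0.28 without ANIT replicate 3, 1.01 without ANIT replicate 4 and 1.11 without gavage control 12. By range of the replicate numbers, the median was 2.52 within numbers 1 to 4 and 0.55 within higher numbers with APAP, and 1.42 and 0.60 with MDA, while with ANIT it was 1.36 with that range as a covariate. With library totals instead of TMM, the median of all genes shifted by 0.43 with CCl4, 0.76 with GAL and -0.59 with ConA, by -0.22 with ANIT and by 0.155 with APAP. Under that scaling the 4 factors lower with CCl4 were no longer called (edgeR adjusted p = 0.0881 for Fos, 0.0959 for Fosb, 0.154 for Junb and 0.0878 for Egr1), nor was Egr1 with GAL (edgeR adjusted p = 0.0915), while Fosl2 was called higher with GAL at 1.58 (edgeR adjusted p = 0.0106). The share of called genes that were higher moved under it from 53.6% to 80.6% with CCl4, from 44.9% to 86.7% with GAL and from 49.3% to 22.7% with ConA. It moved from 49.5% to 23.7% with ANIT and from 54.3% to 72.5% with APAP.

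**Figure D1:**
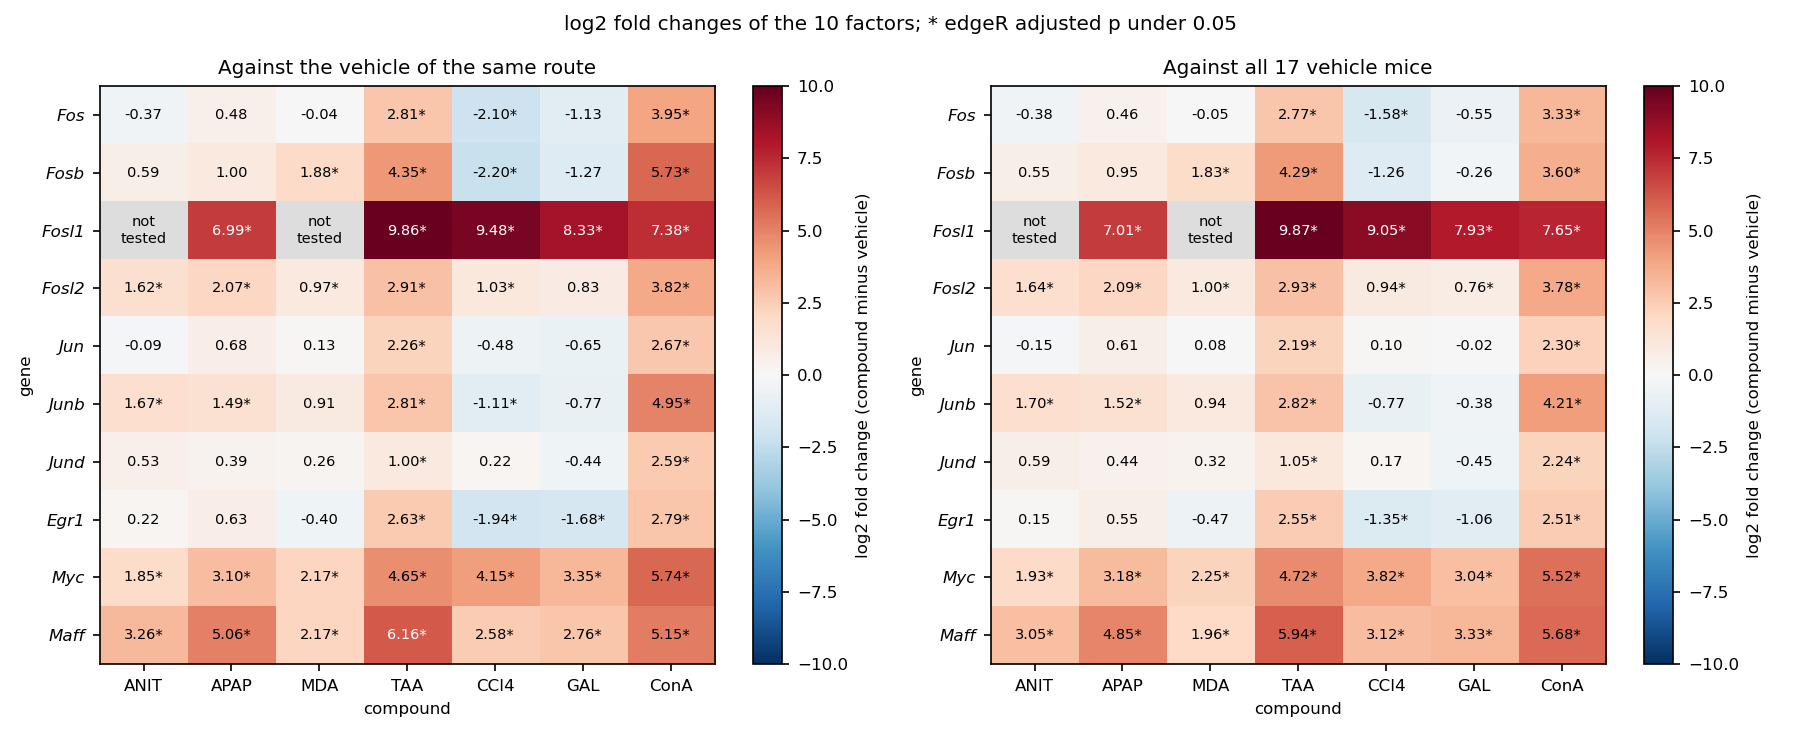
Fitted log2 fold changes of the 10 factors (rows) for the 7 compounds (columns), compound minus vehicle, against the vehicle of the same route (left) and all 17 vehicle mice (right), with an asterisk where the edgeR adjusted p was under 0.05 and grey where the gene had too few counts to be tested. Myc and Maff were called higher with all 7 compounds, Fos, Jun, Jund and Egr1 were called higher with TAA and ConA and with no other compound, and Fos and Egr1 were called lower with CCl4 in both panels.

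Against all 17 vehicle mice the counts were 4 higher with ANIT (13.5% of genes called higher and 14.5% lower), 5 with APAP (18.1% and 15.3%), 4 with MDA (17.2% and 17.1%), 10 with TAA (25.2% and 24.5%) and 10 with ConA (34.3% and 33.7%). GAL gave 4 higher factors (25.1%) and 0 lower (27.5%) by edgeR, and the 4 higher ones were the only factors at an unadjusted p under 0.05. CCl4 gave 4 higher (26.2%) and 2 lower (27.2%). These comparisons share their treated mice, and part of their controls, with those above.

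Fos (ENSMUSG00000021250.14), the founding AP-1 partner of Jun, stood at 47.5, 80.4, 115, 133 and 181 CPM in the 5 TAA livers. In the 7 ConA livers its lowest, median and highest levels were 66.9, 182 and 249 CPM. The 13 gavage controls ran from 0.569 over a median of 10.7 to 40.6 CPM, and the 2 intravenous controls stood at 7.88 and 13.3 CPM. Neither compound's livers overlapped with their controls, and none of the other 5 groups had a Fos level above 48.0 CPM. The log2 change was 2.81 ± 0.60 (SE) with TAA (edgeR adjusted p = 0.000629) and 3.95 ± 0.65 with ConA (edgeR adjusted p = 0.00136). In bulk tissue, a change in the number of cells of a type and a change in RNA per cell cannot be told apart. All 7 neutrophil markers listed were found, and their summed level was also higher in these livers, at 161 to 831 CPM with TAA and 127 to 289 CPM with ConA. It was 2.11 to 62.2 CPM in gavage controls, with Ly6g at the floor of 3 estimated counts in every one, and 7.94 to 8.96 CPM in intravenous controls, with Ly6g and Mmp8 at it. Summed markers of cholangiocytes (5 of 5 found) were likewise higher without overlap, at 12.4 to 25.8 CPM with TAA against 3.91 to 10.3 CPM, and at 30.2 to 68.5 CPM with ConA against 3.96 to 7.01 CPM. With ConA, summed markers of T and NK cells stood at 4.32 to 13.1 CPM against 3.53 to 3.72 CPM, with Cd8a at the floor in all, and those of Kupffer cells were lower, at 23.0 to 50.3 CPM against 277 to 279 CPM. The part of any of these cell types in the result was not tested.

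Fos was not called with ANIT, APAP, MDA or GAL with all mice in the fit. With GAL the log2 change was -1.13, and ran from -1.94 to 0.87 over the mice left out. APAP livers ran from 5.81 over 19.9 to 38.7 CPM and MDA livers from 2.95 over 14.8 to 48.0 CPM, where 1 MDA liver exceeded the span of the gavage controls. The log2 changes were 0.48 ± 0.61 (95% interval -0.80 to 1.76) with APAP and -0.04 ± 0.62 (-1.32 to 1.25) with MDA, so changes of over 1 log2 unit were not excluded. With CCl4 the 7 livers lay between 1.09 and 8.55 CPM, while the 2 intraperitoneal controls stood far apart, at 6.69 and 42.9 CPM. Fos fell by 2.10 ± 0.67 in log2 units (edgeR adjusted p = 0.0377), a call lost without intraperitoneal control 7, where the difference was -0.17, or without CCl4 replicate 6, 8 or 10 (edgeR adjusted p = 0.0604 to 0.899). Against all 17 vehicle mice Fos was still lower, by -1.58 ± 0.60 (edgeR adjusted p = 0.028), with overlapping groups.

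Fosb (ENSMUSG00000003545.4), a Fos relative that is inducible in the same way, was scarce in vehicle livers, at 0.666 ± 0.799 CPM (SD, n = 13) after gavage. It stood at 6.41, 8.14, 13.3, 15.1 and 23.3 CPM in TAA livers and at 2.82 to 11.3 CPM (median 7.69) in ConA livers. The gavage controls reached 3.09 CPM and the 2 intravenous controls 0.136 and 0.164 CPM, with no overlap in either comparison. Fosb rose by a log2 change of 4.35 ± 0.52 with TAA (edgeR adjusted p = 1.06e-06) and 5.73 ± 0.63 with ConA (edgeR adjusted p = 0.000155). MDA livers ran from 0.350 over 1.32 to 7.62 CPM, with 2 of 7 above every gavage control, and gave 1.88 ± 0.60 (edgeR adjusted p = 0.0185), a call that was lost without MDA replicate 7 (edgeR adjusted p = 0.12).

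With CCl4 the Fosb level was 0.177 to 0.454 CPM, and the 2 intraperitoneal controls stood at 0.114 and 2.55 CPM, on either side of the treated livers. The log2 change of -2.20 ± 0.75 (edgeR adjusted p = 0.0486) was lost in 8 of 9 fits that left out 1 mouse, and without intraperitoneal control 7 the value was 1.86. It was not called against all 17 vehicle mice (-1.26 ± 0.63, edgeR adjusted p = 0.0942).

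All 10 factors rose with TAA and with ConA, and promoter sequence is shown for 4 of them, Fos, Fosb, Jun and Maff, as examples of matches to AP-1 or CRE type motifs before the start site. The 150 bases before the start site were read from RefSeq on build GRCm38.p6, which is older than the GRCm39 of the submitters' processing notes. Windows of 7 of the 10 members were read, and those of Fosl1, Egr1 and Myc were not searched. Searched on both strands were the AP-1 site TGACTCA, the CRE TGACGTCA, the variant TGACATCA bound by Jun dimers, the CRE core TGACG (which also lies within each TGACGTCA), TATAAA and the CArG box. Capitals mark TGACG in the first pair, both written 5′ to 3′ on the gene's own strand.
Fos, chr12:85473740-85473889, plus strand: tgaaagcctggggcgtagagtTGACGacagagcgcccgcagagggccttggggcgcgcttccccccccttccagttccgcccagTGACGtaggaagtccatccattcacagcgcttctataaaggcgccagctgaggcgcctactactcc
Fosb, chr7:19310046-19310195, minus strand: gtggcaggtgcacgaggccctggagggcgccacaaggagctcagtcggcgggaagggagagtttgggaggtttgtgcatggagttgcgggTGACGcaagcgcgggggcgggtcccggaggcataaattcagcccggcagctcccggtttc
The Fos window held TGACG at 129 to 125 and at 66 to 62 bases before the start and TATAAA at 33 to 28. In the Fosb window TGACG lay at 60 to 56 bases before the start. Junb, not shown, also held TGACG, at 106 to 102 bases, while no motif searched was in the windows of Fosl2 and Jund. TGACG was present in 13.3% and TATAAA in 7.57% of the 32851 RefSeq promoters of this length, so a match is a description of the letters only.

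Fosl1 (ENSMUSG00000024912.7) encodes Fra-1, a Fos relative without the activation domain of Fos. It was near absent from vehicle livers, where 15 of 17 held at most 3 estimated counts and the highest level was 0.236 CPM. TAA livers stood at 45.7, 51.1, 53.3, 61.8 and 62.8 CPM, and CCl4 livers ran from 22.6 over 30.5 to 41.6 CPM. GAL livers stood at 4.56, 7.55, 22.6 and 24.1 CPM and ConA livers ran from 6.03 over 10.6 to 18.6 CPM. All livers of these 4 groups lay above all vehicle livers, and the TAA livers lay above those of every other group. Summed neutrophil markers, higher with TAA and ConA, stood in CCl4 livers at 10.6 to 73.0 CPM and in GAL livers at 25.4 to 40.7 CPM, against 5.39 to 5.50 CPM with Ly6g and Mmp8 at the floor, and their part in the result was not tested.

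The fitted log2 change of Fosl1 was 9.86 ± 0.39 with TAA (edgeR adjusted p = 1.06e-12) and 6.99 ± 0.62 with APAP (edgeR adjusted p = 3.33e-07), or 6.40 without APAP replicate 1 (edgeR adjusted p = 5.97e-07). It was 9.48 ± 0.60 with CCl4, 8.33 ± 1.32 with GAL and 7.38 ± 0.84 with ConA (edgeR adjusted p = 9.8e-06, 0.0075 and 0.000185). Such values depend on the prior count where controls are near 0. Fosl1 also passed the filter on low counts only through its treated livers, so these p-values are no separate support for the levels above. Against a floor of 3 estimated counts in each control library, Fosl1 was at least 199-fold higher with CCl4, at least 90.1-fold higher with GAL and at least 119-fold higher with ConA. With TAA and APAP no such value is given, as 11 of the 13 gavage controls, not all, were at or under this floor. The GAL call was lost when either intraperitoneal control was left out, at an edgeR adjusted p of up to 0.0583.

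APAP livers ran from 1.70 over 4.19 to 20.3 CPM of Fosl1, all above the gavage controls. In ANIT and MDA livers Fosl1 failed the filter on low counts. Of the 7 MDA livers, 6 stood above every gavage control, at 1.25 to 18.0 CPM, and the seventh was at 0.0893 CPM. Of the 4 ANIT livers, 2 stood above them, at 1.60 and 4.39 CPM, and the others at 0.0405 and 0.0786 CPM. Without the filter the log2 change was 6.38 ± 0.77 with MDA (edgeR adjusted p = 4.66e-06) and 4.67 ± 0.89 with ANIT (edgeR adjusted p = 0.0015).

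**Figure D2:**
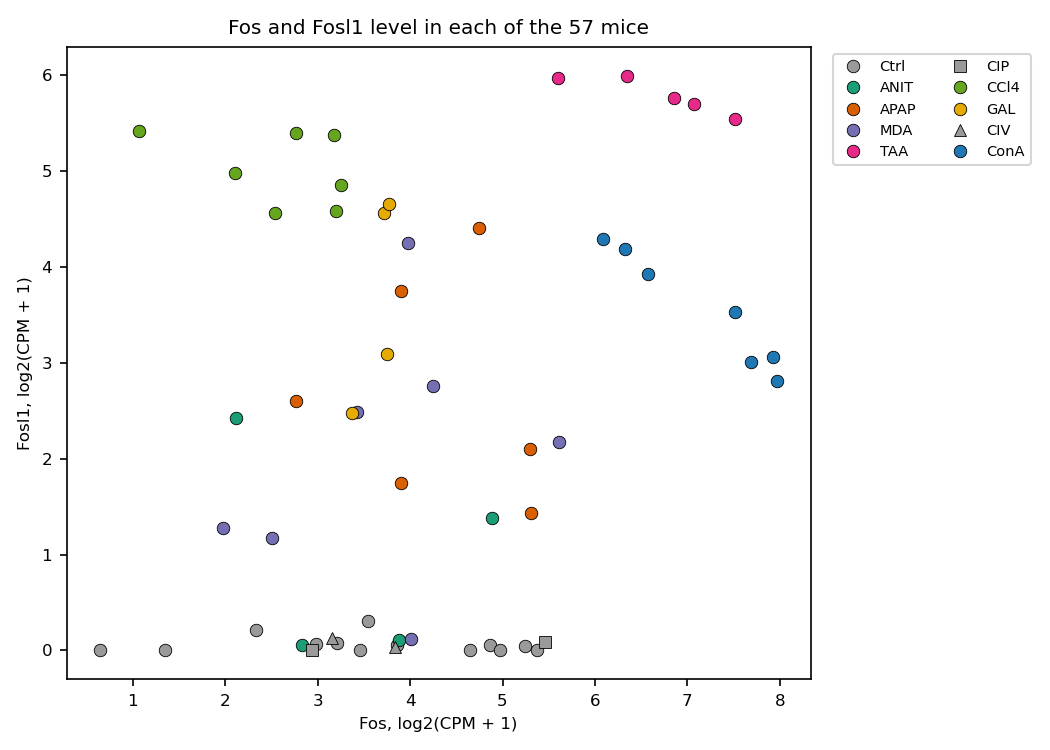
Fos (x axis) against Fosl1 (y axis) in each of the 57 livers, both as log2(CPM + 1), with 1 symbol per mouse and 1 colour per group, vehicle groups in grey. CCl4 livers combine 22.6 to 41.6 CPM of Fosl1 with no more than 8.55 CPM of Fos, TAA livers are high in both, and vehicle livers lie along the bottom over a wide span of Fos.

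Fos and Fosl1 were compared across livers. Pearson's r of log2(CPM + 1) was 0.27 over the 57 livers and -0.07 after the group means were removed, beside 0.85 and 0.60 for Fos and Fosb. These livers share control groups and processing, and the values are descriptive. In the ConA group, chosen after its values were seen, the 3 livers with the lowest Fos (66.9, 79.0 and 94.2 CPM) had the highest Fosl1 (18.6, 17.2 and 14.2 CPM).

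Fosl2 (ENSMUSG00000029135.11) encodes Fra-2, the other late Fos relative, and had a narrow range in vehicle livers, 2.26 to 4.73 CPM over all 17. It stood at 16.6, 21.4, 22.4, 23.5 and 39.0 CPM in TAA livers and at 31.0 to 58.3 CPM (median 43.5) in ConA livers. ANIT livers stood at 4.75, 9.05, 10.9 and 16.8 CPM. In these 3 groups every liver exceeded every control of its route. Fosl2 rose by a log2 change of 2.91 ± 0.18 with TAA, 3.82 ± 0.33 with ConA and 1.62 ± 0.23 with ANIT (edgeR adjusted p = 1.45e-10, 4.82e-05 and 5.76e-05).

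The remaining compounds gave smaller or less even rises of Fosl2. CCl4 livers stood at 5.01 to 7.92 CPM (median 6.85) against 2.93 and 3.54 CPM in the controls, a log2 change of 1.03 ± 0.23 (edgeR adjusted p = 0.00774) that was not called without intraperitoneal control 7 (edgeR adjusted p = 0.0721). APAP livers ran from 3.10 over 7.73 to 46.0 CPM and gave 2.07 ± 0.39 (edgeR adjusted p = 0.000445), or 1.16 without replicate 1, which held the highest value (edgeR adjusted p = 0.00247). MDA livers ran from 2.77 over 6.38 to 11.3 CPM and gave 0.97 ± 0.21 (edgeR adjusted p = 0.00112). The 4 GAL livers, at 3.90 to 7.46 CPM, all exceeded their 2 controls, but the log2 change of 0.83 ± 0.33 was not called (edgeR adjusted p = 0.103). Against all 17 vehicle mice it was 0.76 ± 0.18 and called (edgeR adjusted p = 0.000856).

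Jun (ENSMUSG00000052684.5), the core subunit that can also pair with itself, stood at 63.8, 82.3, 128, 157 and 242 CPM in TAA livers. In ConA livers it ran from 69.2 over 142 to 237 CPM, with gavage controls at 4.71 to 54.9 CPM (median 28.6) and intravenous controls at 16.9 and 27.9 CPM. Both groups lay above their own controls, although intraperitoneal control 7 reached 75.2 CPM, so that 1 of 5 TAA and 2 of 7 ConA livers did not exceed every one of the 17 vehicle livers. The log2 change was 2.26 ± 0.37 with TAA (edgeR adjusted p = 4.69e-05) and 2.67 ± 0.57 with ConA (edgeR adjusted p = 0.00515, or 0.0548 without intravenous control 8). Jun was not called with any of the other 5 compounds with all mice in the fit. With CCl4 its log2 change was -0.48, and ran from -1.17 to 0.91 over the mice left out. APAP livers held 15.3 to 35.8 CPM apart from replicate 1, at 142 CPM.

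Capitals mark TGACATCA in the Jun window, which stood at 45 to 38 bases before the start and occurred in 2.32% of all promoters searched.
Jun, chr4:95052223-95052372, minus strand: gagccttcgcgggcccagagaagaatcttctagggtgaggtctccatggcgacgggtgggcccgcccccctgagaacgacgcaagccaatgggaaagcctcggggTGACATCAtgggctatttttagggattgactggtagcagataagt
No further motif of those searched was in this window.

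Junb (ENSMUSG00000052837.8), a Jun relative with weaker activating capacity, had the largest share of the AP-1 transcripts in ConA livers. Its lowest, median and highest levels there were 377, 616 and 773 CPM, against 9.93 and 26.9 CPM in the controls, a log2 change of 4.95 ± 0.53 (edgeR adjusted p = 0.000138). TAA livers stood at 126, 197, 204, 212 and 366 CPM and gavage controls at 6.11 to 64.7 CPM (median 33.5), a log2 change of 2.81 ± 0.46 (edgeR adjusted p = 4.07e-05). The ConA livers lay above the TAA livers without overlap, a side by side reading of different routes. ANIT livers, at 30.1, 79.0, 139 and 170 CPM, gave 1.67 ± 0.54 (edgeR adjusted p = 0.0275), which was lost without ANIT replicate 2 or 3 (edgeR adjusted p of up to 0.145). APAP livers, at 32.7 to 98.1 CPM apart from 275 CPM in replicate 1, gave 1.49 ± 0.52 (edgeR adjusted p = 0.032), which was lost without APAP replicate 1, at 0.72 (edgeR adjusted p = 0.3), and without APAP replicate 8.

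With CCl4, Junb stood at 12.4 to 24.8 CPM, below both intraperitoneal controls at 30.2 and 55.0 CPM. The log2 change of -1.11 ± 0.30 (edgeR adjusted p = 0.0178) was lost without intraperitoneal control 7 (edgeR adjusted p = 0.294) and against all 17 vehicle mice (-0.77 ± 0.41, edgeR adjusted p = 0.122).

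Jund (ENSMUSG00000071076.9), the Jun relative known for steady expression in resting cells, had the largest AP-1 share in gavage controls. Its level was 66.2 ± 16.1 CPM (SD, n = 13) after gavage of vehicle. TAA livers stood at 104, 108, 116, 141 and 169 CPM and ConA livers at 184 to 327 CPM (median 302), all above the vehicle maximum of 82.7 CPM. The 2 intravenous controls stood far apart, at 76.1 and 18.8 CPM. Jund rose by a log2 change of 1.00 ± 0.19 with TAA (edgeR adjusted p = 0.000238) and 2.59 ± 0.50 with ConA (edgeR adjusted p = 0.00322). The ConA value was 3.98 without intravenous control 7 and 1.90 without intravenous control 8, and called in both fits (edgeR adjusted p of up to 0.00632 over all mice left out). It was not called with the other 5 compounds, whose fold changes lay between -0.44 (GAL) and 0.53 (ANIT) on the log2 scale.

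**Figure D3:**
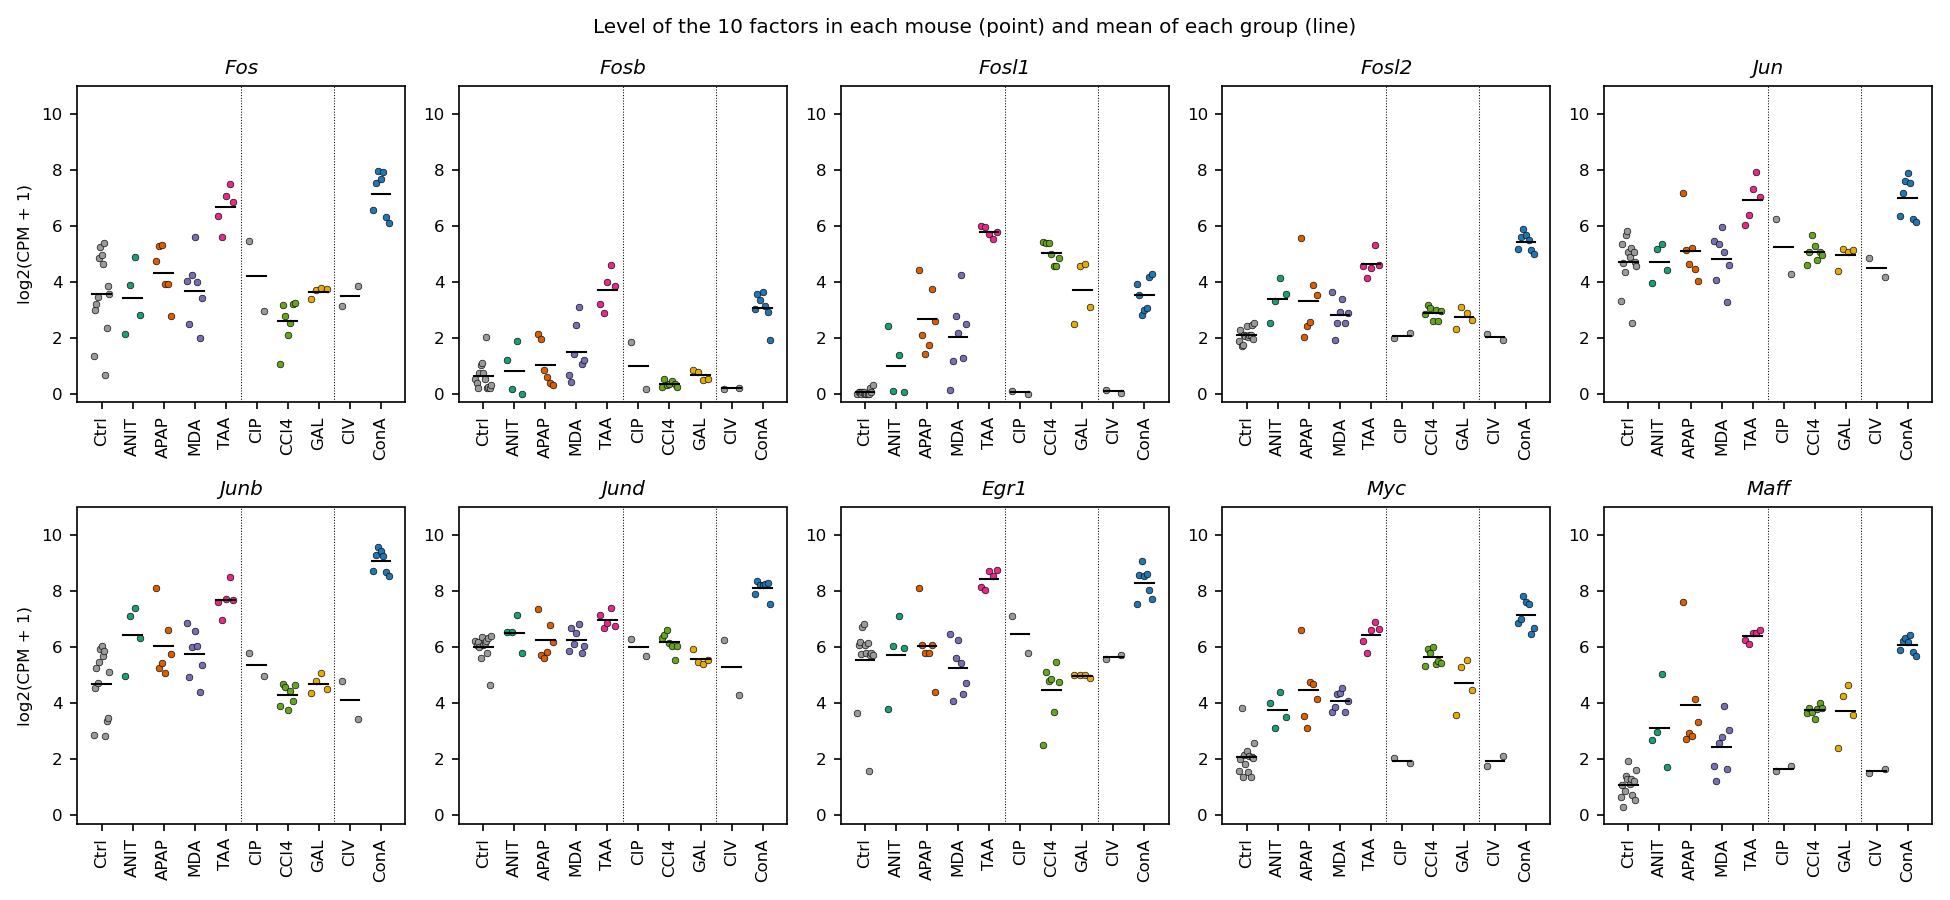
Level of each factor as log2(CPM + 1) on the y axis in each of the 57 livers (points) with the mean of each group (lines), in 10 panels that share 1 scale; dotted lines separate gavage, intraperitoneal and intravenous groups, and the vehicle groups, after gavage (Ctrl), intraperitoneal (CIP) and intravenous (CIV) administration, are grey. TAA and ConA livers stand above their controls in all 10 panels, and CCl4 livers do so for Fosl1, Fosl2, Myc and Maff.

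Egr1 (ENSMUSG00000038418.8) encodes a zinc finger immediate early factor that is no part of AP-1. It stood at 267, 282, 371, 423 and 433 CPM in TAA livers and ran from 185 to 543 CPM in ConA livers. Gavage controls ran from 1.99 over 55.1 to 114 CPM, and intravenous controls stood at 47.4 and 51.8 CPM, all below. The log2 change was 2.63 ± 0.45 with TAA (edgeR adjusted p = 6.92e-05) and 2.79 ± 0.43 with ConA (edgeR adjusted p = 0.000957). No call was made with ANIT, APAP or MDA, where the values were 0.22 ± 0.61 (-0.35 without ANIT replicate 3), 0.63 ± 0.53 (-0.16 without APAP replicate 1) and -0.40 ± 0.47. APAP replicate 1 held 276 CPM while the other 5 APAP livers held 20.0 to 67.0 CPM.

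Egr1 was below both intraperitoneal controls, at 54.8 and 139 CPM, in every CCl4 and every GAL liver. CCl4 livers ran from 4.65 over 26.6 to 43.2 CPM, and the 4 GAL livers stood at 29.3 to 31.1 CPM. Egr1 fell by 1.94 ± 0.59 with CCl4 (edgeR adjusted p = 0.0321) and by 1.68 ± 0.35 with GAL (edgeR adjusted p = 0.0165) on the log2 scale. Without intraperitoneal control 7 neither was called, at -1.08 with CCl4 and -0.78 with GAL (edgeR adjusted p = 0.364 and 0.0551), and the calls were also lost without CCl4 replicate 6 or 12 and without GAL replicate 8 (edgeR adjusted p = 0.0502 to 0.0515). Against all 17 vehicle mice the fall was -1.35 ± 0.47 with CCl4 (edgeR adjusted p = 0.0172) and -1.06 ± 0.54 with GAL, the latter not called (edgeR adjusted p = 0.106). Zfp36 and Ier2, immediate early genes of the list described below, were likewise called lower with both, and were chosen after their values were seen. Zfp36 stood at -2.20 with CCl4 and -2.43 with GAL. Over the mice left out it ran from -2.56 to -1.71 and from -2.83 to -1.89. Ier2 was lower by -1.79 with CCl4 (edgeR adjusted p = 0.00249) and -1.67 with GAL (edgeR adjusted p = 0.0277). Its calls were lost without intraperitoneal control 7, at -0.86 with CCl4 and -0.68 with GAL, and with GAL in 4 of 6 fits that left out 1 mouse (edgeR adjusted p of up to 0.204).

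Myc (ENSMUSG00000022346.18), a helix-loop-helix zipper factor that drives ribosome and nucleotide synthesis, was called higher with all 7 compounds. Vehicle livers held 1.54 to 4.97 CPM apart from gavage control 3, at 13.3 CPM. ConA livers ran from 87.4 over 129 to 228 CPM and TAA livers stood at 54.9, 73.8, 97.4, 99.9 and 117 CPM. CCl4 livers ran from 39.6 over 45.1 to 64.3 CPM, and none of the livers of these 3 groups overlapped with any vehicle liver. Myc rose by 5.74 ± 0.51 with ConA, 4.65 ± 0.36 with TAA and 4.15 ± 0.27 with CCl4 on the log2 scale (edgeR adjusted p = 5.6e-05, 4.67e-09 and 1.01e-05).

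In GAL livers Myc stood at 10.9, 21.3, 38.1 and 45.5 CPM, all above their 2 controls at 2.61 and 3.08 CPM, with a log2 change of 3.35 ± 0.67 (edgeR adjusted p = 0.0148) that was lost without either control (edgeR adjusted p of up to 0.111). APAP livers ran from 7.70 over 20.8 to 97.6 CPM, a log2 change of 3.10 ± 0.47 (edgeR adjusted p = 5.58e-05), or 2.27 without replicate 1 (edgeR adjusted p = 0.000247). MDA livers ran from 11.8 over 16.0 to 22.1 CPM (2.17 ± 0.32, edgeR adjusted p = 2.51e-05), and ANIT livers stood at 7.63, 10.4, 15.0 and 20.1 CPM (1.85 ± 0.41, edgeR adjusted p = 0.00288). In these 3 groups, every liver exceeded the gavage controls other than control 3.

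Maff (ENSMUSG00000042622.15) was also called higher with all 7 compounds and had the smallest vehicle levels after Fosl1 and Fosb, 0.239 to 2.81 CPM. TAA livers stood at 68.4, 76.2, 90.7, 91.2 and 97.2 CPM and ConA livers ran from 51.3 over 72.1 to 86.3 CPM. CCl4 livers, at 9.92 to 15.0 CPM, and GAL livers, at 4.34, 11.1, 18.2 and 24.1 CPM, also lay above every vehicle liver. The log2 change was 6.16 ± 0.33 with TAA, 5.15 ± 0.31 with ConA, 2.58 ± 0.21 with CCl4 and 2.76 ± 0.73 with GAL (edgeR adjusted p = 2.71e-11, 1.35e-05, 2.41e-05 and 0.0344). The GAL call was lost in 5 of the 6 fits that left out 1 mouse (edgeR adjusted p of up to 0.165).

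For Maff, APAP replicate 1 had the highest level of the series, 194 CPM, and the other 5 APAP livers stood at 5.66 to 16.8 CPM, all above the gavage controls. The log2 change was 5.06 ± 0.67 with APAP (edgeR adjusted p = 1.42e-05), and 2.89 ± 0.37 without replicate 1 (edgeR adjusted p = 1.18e-05). MDA livers ran from 1.33 over 4.92 to 14.1 CPM (2.17 ± 0.41, edgeR adjusted p = 0.000343). ANIT livers stood at 2.30, 5.51, 6.80 and 32.3 CPM (3.26 ± 0.50, edgeR adjusted p = 0.000139), and without replicate 3, the highest, the log2 change was 1.99 (edgeR adjusted p = 0.00651). The 3 lowest MDA livers and the lowest ANIT liver overlapped with the gavage controls, which reached 2.81 CPM.

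RefSeq gave 3 start sites for Maff, and the windows before starts 2 and 3 are shown because each held a full CRE type match. Capitals mark TGACGTCA before start 2, and TGACATCA and CGTCA (the CRE core read on the other strand) before start 3.
Maff, start 2, chr15:79347370-79347519, plus strand: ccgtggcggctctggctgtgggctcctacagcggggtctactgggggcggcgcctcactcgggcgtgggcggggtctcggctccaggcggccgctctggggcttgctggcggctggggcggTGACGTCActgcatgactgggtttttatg
Maff, start 3, chr15:79348252-79348401, plus strand: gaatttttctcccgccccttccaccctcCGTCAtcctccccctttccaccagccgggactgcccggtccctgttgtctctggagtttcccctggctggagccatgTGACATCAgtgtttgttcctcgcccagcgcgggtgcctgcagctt
TGACGTCA lay at 29 to 22 bases before start 2 and was present in 1.36% of all promoters, and TGACATCA lay at 45 to 38 and CGTCA at 122 to 118 bases before start 3. Neither TGACTCA (2.84% of all promoters) nor the CArG box (0.916%) was present in the windows of the 7 members searched, which leave out Egr1.

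The make-up of the AP-1 family transcripts is given by group, as a description without a test. The values look corrected for transcript length, so levels of different genes were compared, as shares of the summed CPM of the 4 Fos and 3 Jun family genes. The summed level was 149 ± 51.6 CPM in gavage controls (SD, n = 13), 687 ± 233 CPM with TAA (n = 5), 1205 ± 336 CPM with ConA (n = 7), 170 ± 31.8 CPM with CCl4 (n = 7) and 136 ± 15.9 CPM with GAL (n = 4). Fosl1 made up 19.0 ± 3.12% of it with CCl4, 10.3 ± 6.27% with GAL, 8.92 ± 3.66% with TAA and 1.15 ± 0.821% with ConA, against 0.0339 ± 0.0502% in gavage, 0.0124 ± 0.0176% in intraperitoneal and 0.0539 ± 0.0152% in intravenous controls. The 2 intraperitoneal controls had a summed level of 183 ± 103 CPM (SD, n = 2) and the 2 intravenous controls 102 ± 56.9 CPM (SD, n = 2). Junb made up 11.4 ± 2.66% and Fos 3.44 ± 1.91% of it with CCl4, against 24.5 ± 4.20% and 11.4 ± 7.56% in those controls.

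In ConA livers Junb made up 46.7 ± 2.25% of the family, Jund 24.2 ± 4.79% and Fos 12.5 ± 3.35%, against 17.5 ± 2.01%, 41.9 ± 16.3% and 13.5 ± 11.3% in their 2 controls. Jund was the leading member in gavage controls, at 48.0 ± 17.0%, ahead of Junb (19.9 ± 8.66%) and Jun (19.3 ± 7.78%). The Fos family as a whole took 30.0 ± 1.79% with TAA, beside 12.8 ± 6.20% in gavage controls. It took 26.4 ± 2.40% with CCl4 and 23.5 ± 6.59% with GAL, beside 14.2 ± 6.74% in intraperitoneal controls. With ConA it took 18.0 ± 2.37%, inside the wide span of its 2 intravenous controls, at 8.08% and 26.3%.

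**Figure D4:**
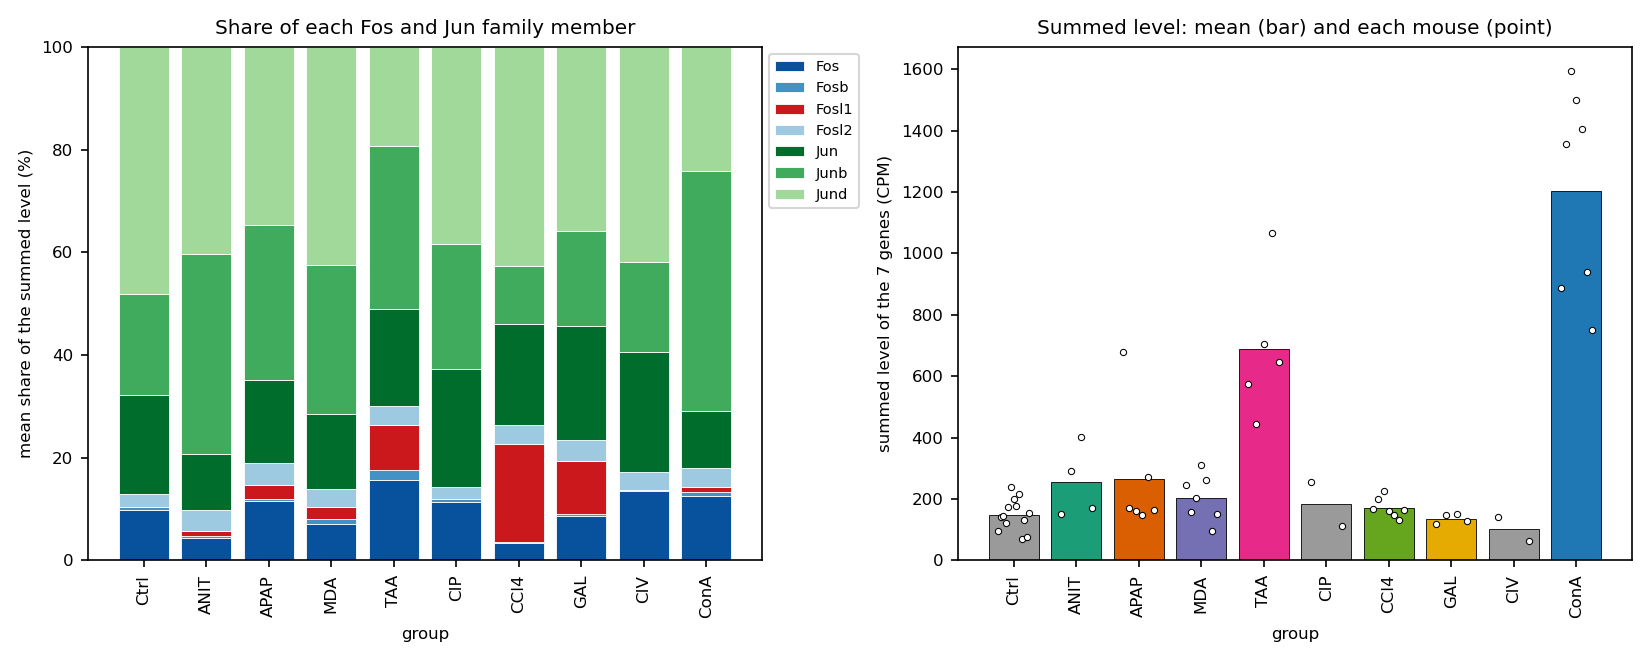
Left, mean share (%) of each of the 7 Fos and Jun family genes in their summed CPM, by group. Right, the summed level in CPM as the mean of each group (bars) and in each liver (points). Fosl1 takes 19.0% with CCl4 at a summed level of 170 CPM, and Junb 46.7% with ConA at 1205 CPM.

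Compounds given by the same route were compared directly, in 7 pairs, with p-values adjusted over all genes of each pair. Scaling by the library total moved the share of called genes that were higher from 39.3% to 9% for ANIT against APAP, 42.3% to 23.9% for ANIT against TAA, 57.1% to 75.7% for APAP against MDA and 52.2% to 32.7% for CCl4 against GAL. MDA livers were lower than TAA livers in all 10 factors (30.0% of genes were called, 14.3% higher and 15.8% lower), from -0.73 ± 0.21 for Jund to -3.98 ± 0.48 for Maff (edgeR adjusted p = 0.0179 and 5.33e-05), and the Jund call was lost without TAA replicate 7. ANIT livers were lower than TAA livers in 8 of 10 (26.2% called, 11.1% higher and 15.1% lower), with Junb (-1.13 ± 0.46, edgeR adjusted p = 0.0979) and Jund (-0.46 ± 0.27, edgeR adjusted p = 0.23) not called. The Fosl2 call was lost without ANIT replicate 2 or 4 (edgeR adjusted p of up to 0.0684). With the number range (1 to 4 or above) in the fit 4 factors were called, where 11.8% of genes were called (4.06% higher, 7.77% lower). APAP livers were lower than TAA livers in Fos (-2.30 ± 0.48), Fosb (-3.37 ± 0.69) and Fosl1 (-2.88 ± 0.58), 3 of 10 factors where 2.62% of genes were called, 1.01% higher and 1.61% lower (edgeR adjusted p = 0.0324, 0.0302 and 0.0296). Without APAP replicate 1 all 10 factors were called lower than with TAA, in a fit where 14.4% of genes were called (6.41% higher, 7.99% lower). By edgeR 0 were called without APAP replicate 4 or 6 or TAA replicate 6, 7 or 8, in fits where 0.445% to 0.66% of genes were called. There the edgeR adjusted p was up to 0.0958 for Fos, Fosb and Fosl1.

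With all mice in the fit, no factor was called between ANIT, APAP and MDA. By edgeR 0 of 10 were called in each of the 3 pairs, where 5.98% of all genes were called for ANIT against APAP (2.35% higher, 3.63% lower), 0.00% for ANIT against MDA and 9.43% for APAP against MDA (5.38% higher, 4.05% lower). For ANIT against MDA that is 0 genes by edgeR, 1253 at an unadjusted p under 0.05 and 180 by DESeq2. At an unadjusted p under 0.05 the factors numbered 0, 0 and 1, and DESeq2 called 0 in each pair, with no adjusted p given to Maff for APAP against MDA. The intervals are wide: for Fosl1 the difference of ANIT from APAP was -2.36 (95% interval -4.78 to 0.06) and of ANIT from MDA -1.75 (-4.35 to 0.84). Maff was 2.86 ± 0.90 higher with APAP than with MDA (edgeR adjusted p = 0.0608), or 0.75 without APAP replicate 1, and was called without APAP replicate 2 (3.09, edgeR adjusted p = 0.0481) or MDA replicate 7 (3.31, edgeR adjusted p = 0.0456).

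CCl4 and GAL, which share their 2 controls, differed directly in 3 of 10 factors, 1 higher with CCl4 and 2 lower, where 42.5% of genes were called (22.2% higher, 20.3% lower). Fos was lower with CCl4 by -1.09 ± 0.41 (edgeR adjusted p = 0.0484) and Fosb by -1.06 ± 0.35 (edgeR adjusted p = 0.0276). Jund was higher by 0.56 ± 0.18 (edgeR adjusted p = 0.029). Over the 11 fits that left out 1 mouse, the call was lost in 7 for Fos, 2 for Fosb and 5 for Jund. Under scaling by the library total, where the genes called leaned to the lower side as given above, 0 factors were higher and 3 lower by edgeR. Jund was no longer called (edgeR adjusted p = 0.232) and Junb was called lower by -0.66 (edgeR adjusted p = 0.0412). Fosl1 differed by 1.06 (95% interval 0.14 to 1.99, edgeR adjusted p = 0.0616) and Myc by 0.70 (-0.01 to 1.42, edgeR adjusted p = 0.105), both higher with CCl4 and neither called.

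The gavage controls varied among themselves in the immediate early factors. Fos stood at 1.55, 6.88, 8.25 and 9.97 CPM in the controls numbered 1 to 4 and at 24.1, 28.1, 30.4, 37.0 and 40.6 CPM in those numbered 7 to 12. Those numbered 15 to 18 stood at 0.569, 4.03, 10.7 and 13.5 CPM. The middle range overlapped with neither other range for Fos, nor for Junb, at 43.3 to 64.7 CPM against 6.37 to 37.1 and 6.11 to 33.5 CPM. What the numbers stand for is not given in the sources used here, and the ranges follow gaps in the numbers.

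**Figure D5:**
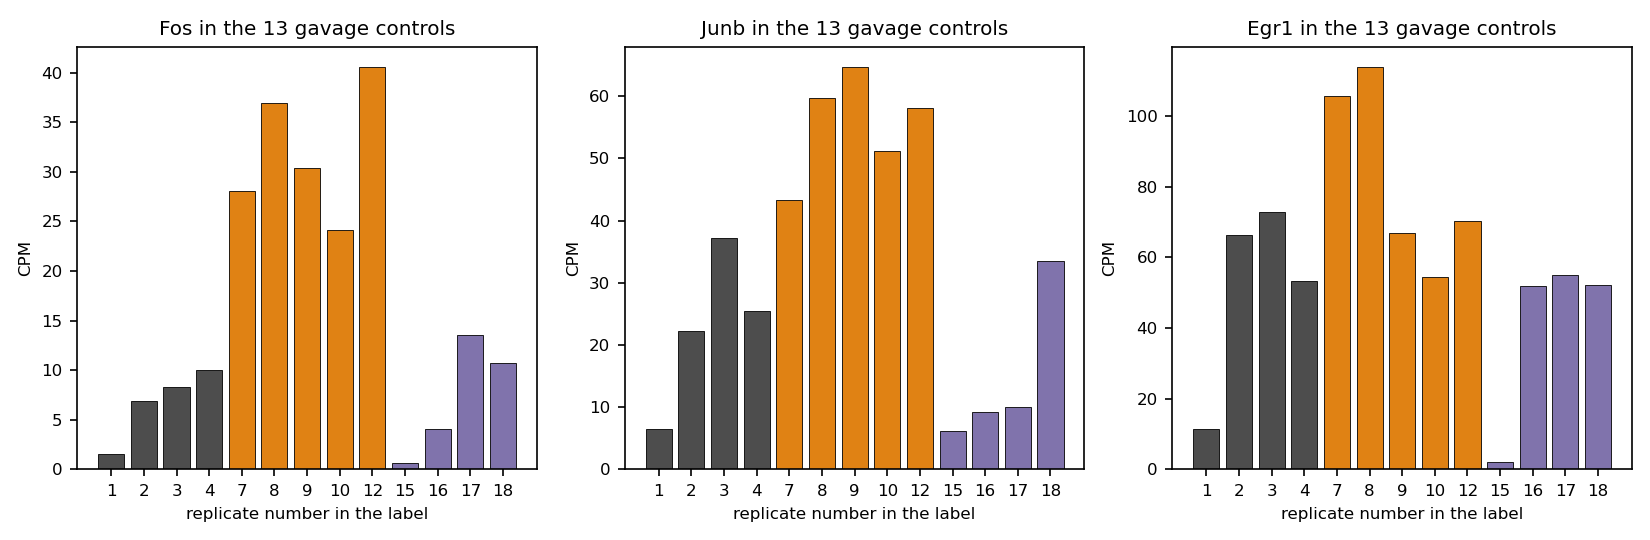
CPM of Fos, Junb and Egr1 (y axes) in each of the 13 gavage controls, by the replicate number in the label (x axes), with 1 colour for each of the ranges 1 to 4, 7 to 12 and 15 to 18. For Fos the 5 bars of the middle range stand at 24.1 to 40.6 CPM and the other 8 at 0.569 to 13.5 CPM.

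Fosl2 and Jund did not follow these ranges. Fosl2 stood at 2.77 ± 0.737, 3.43 ± 0.510 and 3.86 ± 0.897 CPM in the 3 ranges, and Jund at 69.5 ± 4.55, 68.1 ± 12.6 and 60.4 ± 27.1 CPM (SD, n = 4, 5 and 4). Comparisons within the numbers 1 to 4 and within the higher numbers left Fos with TAA at 3.29 (edgeR adjusted p = 0.0127) and 2.81 (edgeR adjusted p = 0.00571). The higher numbers pool the controls numbered 7 to 12 and 15 to 18, and no treated mouse was numbered 15 to 18. This split, also when used as a covariate, therefore does not separate those ranges. For APAP the 2 readings of Fos differed in sign, 2.41 (edgeR adjusted p = 0.0385) within the numbers 1 to 4 and -0.86 (edgeR adjusted p = 0.54) within the higher numbers. For MDA they were 1.66 and -1.18, neither called (edgeR adjusted p = 0.166 and 0.392).

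Other genes of the pathway were taken from 6 lists, whose counts are to be read beside the shares of all genes called. These were 26.4% higher and 24.0% lower with TAA, 16.8% and 17.3% with ConA, 17.3% and 14.6% with APAP, 17.4% and 16.4% with MDA, 14.0% and 14.2% with ANIT, 18.0% and 15.6% with CCl4, and 12.8% and 15.7% with GAL. In the fits that left out 1 mouse, genes called higher were 8.43% without ANIT replicate 3, 14.5% without APAP replicate 1, 14.7% without APAP replicate 8, 23.9% and 24.2% without TAA replicates 6 and 8, and 12.3% with ConA without intravenous control 7. Without intraperitoneal control 8 they were 8.72% with CCl4 and 2.72% with GAL, and with GAL 4.61% without intraperitoneal control 7 and 20.6% without GAL replicate 2. Of 27 other immediate early genes, 20 of 23 tested (87%) were called higher with TAA and 18 of 22 (81.8%) with ConA, none lower. APAP raised 17 of 22 (77.3%), MDA 11 of 22 (50%), ANIT 10 of 22 (45.5%, 1 lower), GAL 10 of 25 (40%, 2 lower) and CCl4 9 of 23 (39.1%, 2 lower). The number higher fell to 5 without ANIT replicate 3 and, with GAL, to 1 without intraperitoneal control 8. The list's median log2 change was 2.74 with TAA, 2.66 with ConA, 1.67 with APAP (0.95 without replicate 1), 0.99 with GAL, 0.88 with CCl4, 0.72 with ANIT and 0.65 with MDA.

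Ier3, a survival gene, rose with all 7 compounds, from 1.89 ± 0.59 with ANIT (edgeR adjusted p = 0.0223) to 7.71 ± 0.39 with ConA (edgeR adjusted p = 6.79e-06) on the log2 scale. The ANIT call was lost without ANIT replicate 1 or 3 (edgeR adjusted p of up to 0.106). Gadd45b, a stress kinase regulator, rose by 5.93 ± 0.51 with TAA (edgeR adjusted p = 1.74e-08). With APAP it was called at 4.73 ± 0.86 (edgeR adjusted p = 0.000342) with all 6 livers and not called without replicate 1, at 1.39 ± 0.53 (edgeR adjusted p = 0.0557).

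Among 13 other AP-1 and small Maf leucine zipper genes, 7 were higher (53.8%) and 2 lower with TAA, 6 (46.2%) and 2 with ConA and 6 (46.2%) and 2 with MDA. ANIT gave 5 (38.5%) and 1 and APAP 4 (30.8%) and 1. CCl4 gave 2 and 2, each 15.4% of the list, and GAL 1 and 1, each 7.69%, shares close to or below those of all genes. The number higher fell to 3 without ANIT replicate 3 and, with ConA, to 4 without intravenous control 7, and with GAL it reached 5 without GAL replicate 2. Atf3, a stress-induced partner of Jun, had the largest fitted change of this list with all 7 compounds, and was called with all but GAL (2.11 ± 1.08, edgeR adjusted p = 0.183). With CCl4, TAA and ConA it had log2 changes of 5.14 ± 0.84, 5.31 ± 0.42 and 8.00 ± 0.92 (edgeR adjusted p = 0.00137, 5.84e-09 and 0.000189). With APAP the change of 4.94 ± 0.83 (edgeR adjusted p = 0.000168) was 1.55 ± 0.44 without replicate 1 (edgeR adjusted p = 0.0123), and with ANIT the call was lost without ANIT replicate 3 (edgeR adjusted p = 0.114). With CCl4 its level of 152 ± 44.2 CPM (SD, n = 7) stood beside 5.68 ± 2.81 CPM of Fos. Mafk, the small Maf relative of Maff, rose by 3.39 ± 0.17 with TAA (edgeR adjusted p = 8.89e-12) and 2.82 ± 0.33 with ConA (edgeR adjusted p = 0.000194). Nfe2l2, the oxidative stress factor that pairs with small Maf proteins, was the one gene of the list called higher with GAL, at 1.78 ± 0.22 (edgeR adjusted p = 0.00368).

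Of 16 genes known as AP-1 targets, 11 to 15 were tested in each comparison. Of 13 tested, 12 were called higher with TAA (92.3%), 11 with APAP (84.6%), 10 with GAL (76.9%, 1 lower) and 7 with CCl4 (53.8%), and 8 of 15 with ConA (53.3%). With ANIT and MDA, 2 of 11 were higher in each (18.2%), close to the share of all genes, and 1 was lower with ANIT. The number higher fell to 3 with GAL without either intraperitoneal control, and to 0 by edgeR with ANIT without ANIT replicate 3. The median was 2.45 with TAA, 2.39 with APAP, 2.99 with GAL, 2.94 with CCl4, 1.96 with ConA, -0.23 with ANIT and 0.03 with MDA on the log2 scale. Plaur, the urokinase receptor, rose by 8.18 ± 0.52 with ConA, 5.44 ± 0.47 with TAA and 5.42 ± 0.30 with CCl4 (edgeR adjusted p = 1.57e-05, 1.5e-08 and 5.93e-06). Mmp12, a macrophage elastase, rose by 6.56 ± 0.85 with GAL (edgeR adjusted p = 0.00399) and 4.15 ± 0.68 with APAP (edgeR adjusted p = 0.000134). Summed markers of monocytes and recruited macrophages (6 of 6 found) were 29.4 to 59.2 CPM in GAL livers and 10.5 to 12.0 CPM in their controls. They were 15.0 to 80.8 CPM (median 25.9) in APAP livers and 3.23 to 38.2 CPM (median 11.2) in gavage controls, with overlap, and their part in this was not tested.

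Of 16 genes known as Myc targets, 15 were called higher with CCl4 (93.8%), 14 with TAA (87.5%), 14 with GAL (87.5%, 1 lower), 12 with APAP (75%, 1 lower), 10 with ConA (62.5%), 8 with ANIT (50%) and 6 with MDA (37.5%). The number fell to 10 with CCl4 and 3 with GAL without intraperitoneal control 8, and to 8 with APAP without replicate 1. Summed markers of dividing cells (4 of 4 found) stood at 3.89 to 6.90 CPM in CCl4 livers against 1.20 to 2.13 CPM in their controls, which had Mki67 at the floor. Those of sinusoidal endothelial cells (5 of 5 found) stood at 51.7 to 73.9 CPM against 92.6 to 107 CPM, and the part of either cell type in these counts or in the rise of Myc was not tested. The list's median was largest with GAL (1.80) and CCl4 (1.79), then ConA (1.26), TAA (1.04), APAP (0.64), ANIT (0.52) and MDA (0.25). Nop58, a nucleolar ribosome assembly protein, rose by 2.92 ± 0.61 with CCl4 (edgeR adjusted p = 0.00559) and 2.61 ± 0.27 with TAA (edgeR adjusted p = 1.83e-07). With GAL it was called at 3.33 ± 0.80 (edgeR adjusted p = 0.026), a call lost without GAL replicate 4 or 8 or intraperitoneal control 8 (edgeR adjusted p of up to 0.115). Odc1, the first enzyme of polyamine synthesis, rose by 3.91 ± 0.31 with ConA (edgeR adjusted p = 3.74e-05).

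Among 9 Myc partners and antagonists, 7 or 8 were tested, and 3 were higher and 2 lower with TAA and with ConA, 1 and 2 with CCl4, 0 and 2 with GAL, 1 and 1 with ANIT and with APAP, and 0 and 1 with MDA. With ANIT and APAP that is 12.5% of the list in each direction, and with MDA 0% and 14.3%, at or below the shares of all genes. These few calls moved with single mice: the number lower ran from 0 (without intraperitoneal control 7) to 4 (without GAL replicate 2) with GAL and from 0 (without intraperitoneal control 7) to 2 with CCl4. Over the mice left out, the number higher ran from 0 to 1 with CCl4 and with GAL, 0 to 2 with ANIT and 2 to 3 with ConA, and the number lower from 0 to 1 with ANIT and with APAP, and 1 to 2 with ConA. Mxd1, which competes with Myc for its partner Max, rose by 4.19 ± 0.53 with ConA (edgeR adjusted p = 0.000313) and 2.72 ± 0.27 with TAA (edgeR adjusted p = 1.03e-07).

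Of 13 kinases and factors upstream of AP-1, all tested, 6 were higher (46.2%) and 2 lower (15.4%) with TAA, 4 (30.8%) and 0 with MDA, 3 (23.1%) and 1 with ConA, 2 (15.4%) and 1 with APAP, 2 (15.4%) and 0 with GAL, and 1 and 1 (7.69% each) with ANIT and with CCl4. The list's median log2 change was 0.57 with ConA and between -0.06 and 0.18 with the other 6 compounds. Over the mice left out the number higher reached 5 with MDA, 4 with APAP and 2 with ANIT. The number higher fell to 4 with TAA without replicate 6 or 8, to 1 with ConA without intravenous control 7, to 1 with APAP without replicate 8, and to 0 by edgeR with GAL without intraperitoneal control 8. Mapkapk2, the kinase downstream of p38, had the largest change of the list with ConA, 1.79 ± 0.33 (edgeR adjusted p = 0.00245), and with CCl4, 1.14 ± 0.18 (edgeR adjusted p = 0.00125). Mapk8, the stress kinase JNK1 that phosphorylates Jun, rose by 1.05 ± 0.18 with TAA (edgeR adjusted p = 9.68e-05). Phosphorylation, the usual mode of control of these proteins, is not measured by RNA-seq.

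Against all 17 vehicle mice, the number higher in each of the 6 lists moved by at most 1 with ANIT, APAP, MDA and TAA. With GAL, where 25.1% of genes were higher and 27.5% lower, 6 of 13 other leucine zipper genes were higher (46.2%) and 1 lower, 5 of 13 upstream kinases and factors were higher (38.5%) and 1 lower, and 4 of 8 Myc partners were lower (50%). With ConA, where these shares were 34.3% and 33.7%, 8 of 13 were higher (61.5%) and 3 lower in both the leucine zipper and the upstream list, and 12 of 14 AP-1 targets were higher (85.7%). With CCl4, at 26.2% and 27.2%, 5 of 22 other immediate early genes were lower (22.7%) and 2 of 7 Myc partners higher (28.6%).

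By group mean, TAA and ConA held the top pair of ranks among the 10 groups for 9 of the 10 factors. ConA led for Fos, Fosl2, Jun, Junb, Jund and Myc, and TAA for Fosb, Fosl1, Egr1 and Maff. For Fosl1 the order was TAA, CCl4, GAL, ConA, APAP, MDA, ANIT and then the vehicles, and for Myc CCl4 ranked next after ConA and TAA. Groups next to each other in these orders did not overlap between TAA and intraperitoneal vehicle for Fos, ConA and intraperitoneal vehicle for Egr1, ConA and TAA for Junb and Jund, TAA and CCl4 for Fosl1, and CCl4 and intravenous vehicle for Fosb. All other neighbours overlapped.

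Genes with the most similar pattern over the 57 livers were sought among 12239 genes that averaged 1 CPM or more, as a description of libraries that share treatment groups. Fos was most like Egr1 (Pearson's r = 0.92) and Gdf15 (0.89), and Jun most like Gdf15 (0.91) and Egr1 (0.88). Fosl1 was most like the phosphatase genes Dusp5 (0.945) and Dusp4 (0.942), and Fosl2 most like Cblb (0.955) and Adamts1 (0.947). Junb was most like Btg2 (0.94) and Pim3 (0.90), Jund like Sp2 (0.88) and Csrnp1 (0.88), and Fosb like Fos (0.85) and Hspa2 (0.84). Myc was most like Pvr (0.94) and Klf6 (0.93), and Maff like Mafk (0.98) and Bcl10 (0.95). Between members, r was 0.91 for Myc and Maff and 0.85 for Fosl1 and Myc, and 0.22 for Fosl1 and Egr1.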

How the data were processed

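RNA from the perfused outer left lateral lobe of each liver was sequenced as stranded mRNA, per the labels' protocols. The authors deposited estimated counts per gene. Salmon 1.6.0, R 4.1.3 and build GRCm39 are named in the submitters' processing notes, and annotation and settings are not given in the sources used here. In 6449 genes with a single transcript, longer transcripts had lower minimum nonzero values (rho = -0.947, Spearman, across genes), the pattern of length-corrected counts. Rounded estimated counts went into edgeR 4.0.16 (R 4.3.3) with TMM scaling, filterByExpr and the two-sided quasi-likelihood test, with Benjamini-Hochberg adjustment over all genes tested. Levels for correlations were log2(CPM + 1). Symbols matched 51482 IDs. The scripts were tested on simulated data, and 0 pairs of libraries were identical.

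The members and lists were chosen with earlier results of these data known. Named are all 10 members, at most the 3 called genes with the largest change in each list and comparison, and for each member the 2 genes most like it, plus genes stated to be chosen after their values were seen. Alternatives were scaling by library total, no filter, DESeq2 1.42.0, all 17 vehicle mice, a replicate block, the range of replicate numbers, and each mouse left out. Same-numbered mice did not deviate together in every pair, so numbers were not used as pairs. For TAA and gavage controls the correlations of deviations were all positive, at 0.272, 0.103, 0.152 and 0.0217. For MDA and gavage controls they ran from -0.167 to 0.0946. Mice of unlike numbers were not compared.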

Additional observations from a re-analysis of the deposited data

Results flagged for a closer look

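In groups of 4 to 10 mice, the highest or lowest liver stood far from the others in 6 of 70 combinations of factor and group. Dixon's ratio was taken on log2(CPM + 1), not on the CPM printed here, at its 95% critical value, which chance exceeds in about 1 in 20. In APAP replicate 1 Jun stood at 142 CPM (15.3 to 35.8 CPM in the other 5 livers) and Maff at 194 CPM (5.66 to 16.8 CPM). In GAL replicate 2 Fos stood at 9.32 CPM (12.1 to 12.7 CPM in the other 3) and Jun at 20.0 CPM (32.2 to 35.2 CPM). Egr1 in GAL replicate 8 stood at 29.3 CPM (31.0 to 31.1 CPM), a small step within a narrow group. Fosb in ConA replicate 12 stood at 2.82 CPM (6.63 to 11.3 CPM).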

How the results depend on the processing

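Of the tests of single factors, the side of the threshold was kept in 136 of 138 with DESeq2, 132 of 138 without the filter, 128 of 138 with library totals, 64 of 68 with all 17 vehicle mice, 128 of 138 with the number range as covariate and 1626 of 1713 with 1 mouse left out. The sign was also kept in 136, 132, 122, 63, 123 and 1586 of these. Within mice numbered 1 to 4 the side was kept in 71 of 96 (the sign too in 65) and within higher numbers in 86 of 99 (79). Over all alternatives 70 values called in neither fit changed sign. Of called values, Fosb with CCl4 turned its direction, to 1.86 without intraperitoneal control 7, within a span of -3.12 to 1.86 over the mice left out. With the replicate block, 87 of 108 kept their side and 82 of these their sign. The cause of these changes was not tested.

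The number of factors called with the replicate block was 1 with ANIT, 1 with APAP, 1 for ANIT against TAA and 0 by edgeR for APAP against TAA. Genes called with the block were 962 with ANIT, 230 with APAP, 2600 with MDA, 0 for ANIT against APAP, 117 for ANIT against TAA, 0 for APAP against MDA, 0 for APAP against TAA and 1424 for MDA against TAA. Without the block these were 3967, 4436, 4570, 826, 3559, 1272, 367 and 4118.

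With the number range as covariate 2 factors were called with ANIT and 4 for ANIT against TAA. Genes called were 2684 with ANIT, 152 for ANIT against APAP and 1606 for ANIT against TAA. Within mice numbered 1 to 4, fewer samples gave 3 factors with APAP, 1 with MDA, 1 for ANIT against TAA, 0 for APAP against TAA and 3 for MDA against TAA. Genes called were then 1688 with ANIT, 824 with APAP, 1292 with MDA, 2689 with TAA, 31 for ANIT against APAP, 369 for ANIT against TAA, 69 for APAP against MDA, 1 for APAP against TAA and 767 for MDA against TAA. Within mice numbered above 4, 8 factors were called for APAP against TAA and 1 for CCl4 against GAL, and genes called were 3020 with MDA, 3075 with ConA, 60 for APAP against MDA and 1032 for APAP against TAA.

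Library totals left 4 factors with CCl4, and gave 1433 genes for ANIT against APAP and 208 for APAP against TAA. They moved the median of all genes by -0.343 for ANIT against APAP, -0.172 for ANIT against MDA, -0.246 for ANIT against TAA, 0.187 for APAP against MDA, 0.12 for APAP against TAA and -0.233 for CCl4 against GAL. Without the filter 1 factor was called for CCl4 against GAL, and genes called were 330 for ANIT against APAP and 136 for APAP against TAA. DESeq2 called 2151 genes for ANIT against APAP, 180 for ANIT against MDA, 2251 for APAP against MDA and 1355 for APAP against TAA. Against all 17 vehicle mice 8014 genes were called with GAL and 9384 with ConA, beside 4416 and 4827.

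With 1 mouse left out, factors called ranged from 3 to 9 with CCl4, 0 to 5 with GAL, 0 to 1 for APAP against MDA, 0 to 10 for APAP against TAA and 1 to 3 for CCl4 against GAL. Genes called ranged from 2540 to 4068 with ANIT, 3015 to 5430 with CCl4, 1617 to 6483 with GAL, 134 to 2088 for ANIT against APAP, 0 to 54 for ANIT against MDA and 64 to 2002 for APAP against TAA. For APAP against MDA genes called ranged from 872 to 1887. Where a single control is left, it is assumed to vary like the treated group. Depth limits Fosl1 and Fosb, which had control libraries at or under 3 estimated counts.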
